A study of Mus musculus with 6 samples.

Results

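The genes described here are 10 genes of iron handling: the metalloreductase genes Steap2, Steap3 and Steap4, the uptake genes Tfrc and Slc11a2, the ferritin genes Fth1 and Ftl1, the exporter gene Slc40a1, the iron-regulatory protein gene Ireb2, and Lcn2, which encodes lipocalin 2. They were taken by name from the 53379 gene identifiers of the count tables, and all 10 were counted. The set was selected on the measured fall of Steap4 and Lcn2 with the JunD gRNA relative to the control gRNA, so the values of those 2 genes in this contrast are given as a description and without a test. The other 8 genes are read from a fit over all genes.

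RNA was sequenced from Min6 cells, a mouse insulinoma line that makes insulin and stands in for the beta cell. The 3 libraries of the control group came from cells given the lentiviral Cas9 vector lentiCRISPR v2 with a guide RNA (gRNA) against the Rosa26 locus, and the 3 libraries of the other group from cells given the vector with a gRNA against JunD, the gene of an AP-1 transcription factor. Both groups were at passage 28 in high glucose DMEM, both were collected at day 8 after transduction, and both had been under glucolipotoxic conditions for 30 hours, so the control cells had received the Cas9 vector and the stress as well. No unstressed or untransduced library was analysed here. The labels name neither a clone nor a selection step, and do not say whether replicates were separate cultures, so the spread that the p-values rest on may be technical.

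Library totals ran from 41071566 to 50024931 counts. Rosa26 gRNA replicate 1 stood apart from the other 5 libraries: it lay at -66.6 on the first principal component of log2 expression (45.3% of the variance), and the others lay between 7.1 and 23.6. The 10 genes are therefore compared on 6 libraries and on the 5 without it. Jund itself was at 39.3, 34.5 and 30.4 CPM (counts scaled to the library total) in Rosa26 gRNA replicates 1 to 3 and at 22.6, 25.1 and 26.9 CPM in the JunD gRNA replicates. All 9 beta-cell markers reached 1 CPM, with summed levels of 42400 to 77300 CPM in the Rosa26 gRNA libraries and 75700 to 81600 CPM in the JunD gRNA libraries. Gcg, the glucagon gene, and other markers of alpha, delta and PP cells were also present, at a sum of 542 to 728 CPM and 679 to 707 CPM respectively.

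Iron reaches most cells bound to transferrin, which enters through transferrin receptor 1 (Tfrc). In the endosome a STEAP metalloreductase reduces ferric to ferrous iron, and the transporter DMT1 (Slc11a2) carries it into the cytosol. Iron that is not used is stored in ferritin, a shell of heavy (Fth1) and light (Ftl1) chains, or leaves through ferroportin (Slc40a1). Iron-regulatory proteins, among them IRP2 (Ireb2), bind hairpins called iron-responsive elements (IREs) in mRNAs when iron is scarce: at the start of ferritin and ferroportin mRNAs they block translation, and at the end of the Tfrc mRNA they protect it from decay. Lipocalin 2 is a secreted protein that binds siderophores, the iron carriers of bacteria, and is known as an inflammation-induced product of epithelia and neutrophils. Beta cells hold iron-dependent enzymes and are known to be sensitive to iron excess.

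Among the 10 genes, 4 matched an IRE pattern, shown here because it is the sequence through which the mRNAs of uptake, storage and export answer to the same regulators. The search took a C, then 5 bases, the loop CAGTG followed by A, C or T, and 5 bases that pair with the 5 before the loop, G-T pairs allowed, in the untranslated regions of GENCODE M21 transcripts on GRCm38. Each element is 17 bases long, is written on the gene's own strand with T for U, and has its loop in capitals.
Fth1, 5′ UTR, chr19:9982738-9982754, plus strand: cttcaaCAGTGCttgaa
Ftl1, 5′ UTR, chr7:45459785-45459801, minus strand: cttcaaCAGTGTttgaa
Slc40a1, 5′ UTR, chr1:45925471-45925487, minus strand: cagctaCAGTGTtagct
Tfrc, 3′ UTR, chr16:32631225-32631241, plus strand: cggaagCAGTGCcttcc
Tfrc, 3′ UTR, chr16:32631604-32631620, plus strand: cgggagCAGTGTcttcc
Tfrc, 3′ UTR, chr16:32631669-32631685, plus strand: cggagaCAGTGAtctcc
Tfrc, 3′ UTR, chr16:32631716-32631732, plus strand: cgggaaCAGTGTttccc
The pattern was found in 133 of 22527 coding genes (0.59%). The Tfrc mRNA held 4 elements, all in its 3′ UTR, and the other 3 mRNAs held 1 each in the 5′ UTR. The pattern had no match in the untranslated regions of Slc11a2, Ireb2, Lcn2 or the STEAP genes. It requires all 5 bases on either side of the loop to pair. An element with a mismatch or bulge there would be missed, so the lack of a match does not show that these mRNAs lack an IRE.

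Levels per transcript length are given as TPM (counts per merged exon length, scaled to the same total in each library), as the mean and the range over the 6 libraries. Fth1 was the most abundant of the 10 at 146 TPM (94.3 to 163), followed by Tfrc at 69.4 TPM (55.3 to 90.0), and the ranges of these 2 genes did not meet. Ireb2 at 27.6 TPM (22.7 to 37.2) and Slc11a2 at 27.0 TPM (24.1 to 30.7) did not differ beyond their spread, and both lay below every Tfrc value. Slc40a1 ranged from 9.22 to 10.8 TPM, followed by Ftl1 at 7.88 TPM (6.37 to 9.76) and Steap2 at 7.03 TPM (6.27 to 7.67), each range meeting that of the next. Lcn2 at 4.98 TPM (3.25 to 8.12), Steap4 at 2.29 TPM (1.1 to 3.54) and Steap3 at 1.65 TPM (1.25 to 1.89) were the least abundant, again with ranges that met from neighbour to neighbour. Steap4 and Lcn2, which chose the set, were near its lower end. The place of Ftl1 in this order is uncertain, since most light chain reads were counted at its near-identical copy Ftl1-ps1, at 338 TPM (273 to 366), above every Fth1 value.

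The 8 genes other than Steap4 and Lcn2 are counted first. Tfrc, Slc11a2 and Slc40a1 had all JunD gRNA libraries below all Rosa26 gRNA libraries, beside 12.8% of the 17767 genes tested. For 1 gene, Fth1, all JunD gRNA libraries were above, beside 11.6% of genes, and for the others the groups overlapped. Steap4, selected for its fall, was also apart and lower, and the Lcn2 groups overlapped. On 6 libraries no gene of the transcriptome passed an adjusted p of 0.05 in edgeR's quasi-likelihood test (0.0% of 17767), while 2119 genes (11.9%) had an unadjusted p under 0.05. On the same libraries DESeq2 called 0 of the 8 genes other than Steap4 and Lcn2 lower, beside 0.265% of all genes, and limma-voom with sample weights 2 (Tfrc and Slc11a2), beside 0.912%. On 5 libraries edgeR called the same 2 of the 8 lower, beside 1.4% of 18296 genes, and 0 higher, beside 1.45%. The transcriptome split into 266 genes higher and 257 lower on 5 libraries, 197 and 302 with upper-quartile factors, and 380 and 206 after a correction for GC content and length.

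The median log2 fold change of the 8 genes other than Steap4 and Lcn2, JunD gRNA over Rosa26 gRNA, was -0.16 on 6 libraries and -0.13 on 5, beside -0.01 and 0.00 over all genes tested. It was negative for 6 of the 8 on 6 libraries and for 7 on 5 libraries, beside 51.1% and 50.8% of all genes. With Steap4 and Lcn2, which were selected for their fall, the medians were -0.23 and -0.20. Ftl1 counts as negative here, and was at 0.11 on 6 libraries when summed with its copies. After the correction for GC content and length on 6 libraries, log2 fold changes were 0.17 for Steap2, 0.09 for Steap3 and 0.24 for Fth1. They were -0.18 for Tfrc, -0.26 for Slc11a2, -0.02 for Slc40a1, -0.05 for Ireb2 and -0.32 for Ftl1 alone. In bulk RNA, fewer cells that express a gene and less RNA per cell cannot be told apart.

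**Figure D1:**
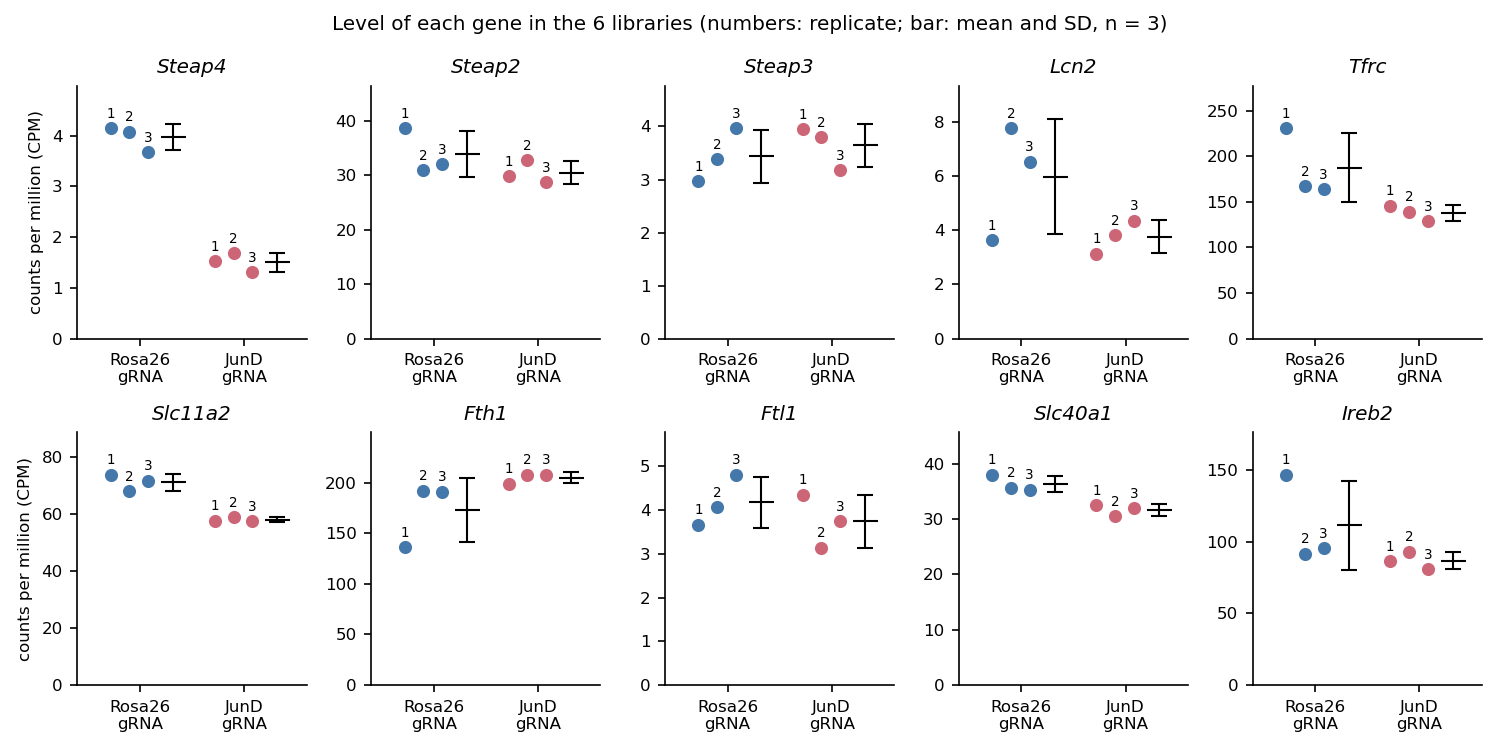
Level of each of the 10 genes in CPM (vertical axis, from 0) in each Rosa26 gRNA library (blue) and JunD gRNA library (red); numbers give the replicate and the bar its group's mean and SD (n = 3). Steap4 shows the widest gap between groups as a ratio, and Rosa26 gRNA replicate 1 is the highest library for Tfrc, Ireb2 and Steap2 and the lowest for Fth1.

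Steap4 encodes a metalloreductase of the plasma membrane and endosomes that is known to be induced by inflammatory cytokines in fat and other tissues. It stood at 4.15, 4.08 and 3.68 CPM in Rosa26 gRNA replicates 1, 2 and 3 and at 1.53, 1.68 and 1.31 CPM in the JunD gRNA replicates. In counts this was 180, 204 and 176 against 64, 69 and 65. The groups did not overlap, and Rosa26 gRNA replicate 1 lay close to its 2 group mates. The log2 fold change was -1.38 ± 0.17 (SE, n = 3 per group), or 0.383 of the control level, on 6 libraries, and -1.36 ± 0.20, or 0.389, on 5. The gene (GRCm38 chr5:7960457-7982213, plus strand, 5 merged exons) was the member whose level differed most.

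Steap2 and Steap3, the other metalloreductases of the set, overlapped between groups. Steap2 was at 38.7, 31.0 and 32.1 CPM with the Rosa26 gRNA and 29.9, 32.8 and 28.7 CPM with the JunD gRNA, and the groups overlapped. Its log2 fold change was -0.14 ± 0.10 on 6 libraries (edgeR adjusted p = 0.521) and -0.05 ± 0.07 on 5 (0.809). With the correction for GC content and length the sign turned, to 0.17 and 0.09, and the gene passed no test. Steap3, the reductase known from erythroid transferrin endosomes, was at 2.97, 3.38 and 3.97 CPM against 3.95, 3.8 and 3.18 CPM, with overlapping groups and log2 fold changes of 0.09 ± 0.17 (adjusted p = 0.806) and -0.01 ± 0.17 (0.987). Steap1, a family member outside the set that lacks a complete reductase domain, had a log2 fold change of -0.14 ± 0.12 on 6 libraries (adjusted p = 0.575) and -0.25 ± 0.08 on 5 (0.0665). A difference between Steap4 and its relatives was not tested. Steap2 lies at chr5:5664829-5694578 on the minus strand (8 merged exons), at lower coordinates than Steap4 on the same chromosome, and Steap3 at chr1:120190757-120272705 on the minus strand (9 merged exons).

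Lcn2 was at 3.64, 7.78 and 6.54 CPM in Rosa26 gRNA replicates 1, 2 and 3 and at 3.13, 3.82 and 4.35 CPM in the JunD gRNA replicates, from 158, 389 and 313 counts against 131, 157 and 216. Rosa26 gRNA replicate 1 lay within the range of the JunD gRNA libraries, as it did for 19.8% of all genes tested, and the other Rosa26 gRNA libraries lay above all 3. The log2 fold change was -0.65 ± 0.27 (SE), or 0.635 of the control level, on 6 libraries and -0.92 ± 0.15, or 0.53, on 5. Without that library the Steap4 value hardly moved, whereas the Lcn2 groups no longer overlapped. Lcn2 lies at chr2:32384633-32388252 on the minus strand, with 5 merged exons. Slc22a17, which encodes a proposed lipocalin 2 receptor, was at 99.8, 154 and 147 CPM against 157, 144 and 171 CPM, with a log2 fold change of 0.25 ± 0.16 on 6 libraries (adjusted p = 0.475) and 0.07 ± 0.05 on 5 (0.604).

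Macrophages and neutrophils are known sources of Lcn2, and macrophages of Steap4. The 7 macrophage markers summed to 4.35 to 4.86 CPM in the Rosa26 gRNA libraries and 3.14 to 4.43 CPM in the JunD gRNA libraries, with 1 of 7 at 1 CPM or more. That gene was Cd68, a lysosomal protein not limited to macrophages, at 3.82, 3.96 and 3.05 CPM against 2.89, 2.19 and 2.80 CPM, which did not overlap. Its log2 fold change was -0.44 ± 0.18 on 6 libraries (adjusted p = 0.417) and -0.41 ± 0.19 on 5 (0.288). Adgre1 had 0 counts in every library, and Ptprc, the pan-leukocyte marker, was at 0.0403 CPM or less. The 6 neutrophil markers summed to 0.0691 CPM or less with the Rosa26 gRNA and to 0.146 CPM or less with the JunD gRNA, with S100a8 and Ly6g at 0 counts.

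The promoters of Steap4 and Lcn2 were searched because the targeted gene encodes an AP-1 factor and both genes are known to respond to NF-kB and C/EBP factors. The 250 bases before the start were read from RefSeq for GRCm38.p6, on both strands, for TGANTCA (AP-1), TGACGTCA (CRE), GGGNNNNNCC (NF-kB) and TTNNGNAA (C/EBP). The RefSeq starts differ from the GENCODE gene ends given above. The Lcn2 window (chr2:32387740-32387989) lies inside the GENCODE span of the gene, and the end of the Steap4 window (chr5:7960222-7960471) reaches into it. The table held 15 promoters of 8 of the genes, with no entry for Slc11a2 and Slc40a1. Each match in the 2 promoters is shown with up to 6 bases on either side, on the gene's strand and in capitals.
Steap4, NF-kB, from 250 bases before the start, chr5:7960222-7960237: GGGATGCCCCacccca
Steap4, C/EBP from 230 and NF-kB from 226 bases before the start, overlapping, chr5:7960236-7960261: caaaggTTCCGGAAAACCCCttttat
Steap4, C/EBP, from 87 bases before the start, chr5:7960379-7960398: ctcctcTTGCGAAAtcaagc
Steap4, NF-kB, from 73 bases before the start, chr5:7960393-7960414: tcaagcGGGCCCTCCCtcctcc
Lcn2, C/EBP, from 216 bases before the start, chr2:32387942-32387961: ttcctgTTGCTCAAccttgc
Lcn2, NF-kB, from 102 bases before the start, chr2:32387826-32387847: aaggatGGACTACCCCgcccaa
Steap4 is on the plus strand and Lcn2 on the minus strand. TGANTCA and TGACGTCA matched 0 of the 15 promoters, beside 6.75% and 1.55% of the 32851 promoters of the table. GGGNNNNNCC matched 12 of the 15, beside 45.8% of the table, and TTNNGNAA matched 8, beside 36.8%. Several of the 15 are alternative starts of the same gene, and the Tfrc windows overlap and share a match. The 15 are therefore not independent, and the shares were not compared by a test. The letters are common in the genome, and a match is not a bound site.

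The uptake genes Tfrc and Slc11a2 were lower with the JunD gRNA, by less than Steap4. Tfrc, the transferrin receptor, was at 231, 167 and 164 CPM with the Rosa26 gRNA and 146, 139 and 129 CPM with the JunD gRNA. All JunD gRNA libraries were below all Rosa26 gRNA libraries, and Rosa26 gRNA replicate 1 was far above the rest. The log2 fold change was -0.42 ± 0.12 on 6 libraries, which did not pass (edgeR adjusted p = 0.417). On 5 libraries Tfrc fell by 0.26 on the log2 scale (SE 0.05, adjusted p = 0.00344), to 0.837 of the control level. It did not pass when either remaining control library was left out as well (adjusted p = 0.125 without Rosa26 gRNA replicate 2 and 0.161 without replicate 3, over a range of 6.46e-06 to 0.161 for its alternatives). After the correction for GC content and length it was smaller, at -0.15 ± 0.04 on 5 libraries (adjusted p = 0.0293) and -0.18 ± 0.05 on 6 (0.262). The gene lies at chr16:32608920-32632794 on the plus strand (19 merged exons).

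Slc11a2, which encodes the ferrous iron transporter DMT1, was at 73.9, 68.0 and 71.8 CPM against 57.7, 59.0 and 57.6 CPM. The groups did not overlap, and Rosa26 gRNA replicate 1 lay among its group mates. It differed by a log2 fold change of -0.28 ± 0.07 on 6 libraries (adjusted p = 0.417). On 5 libraries Slc11a2 fell by 0.26 on the log2 scale (SE 0.05, adjusted p = 0.00668), to 0.834 of the control level, and it was at -0.24 after the GC and length correction. With replicate 2 or replicate 3 of the Rosa26 gRNA also left out it did not pass (adjusted p = 0.082 and 0.41, over a range of 0.000634 to 0.41 for its alternatives). The gene lies at chr15:100387898-100425072 on the minus strand (20 merged exons). Its exons share 402 bases with Gm5475 on the other strand, which had 77 counts in all 6 libraries together.

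**Figure D2:**
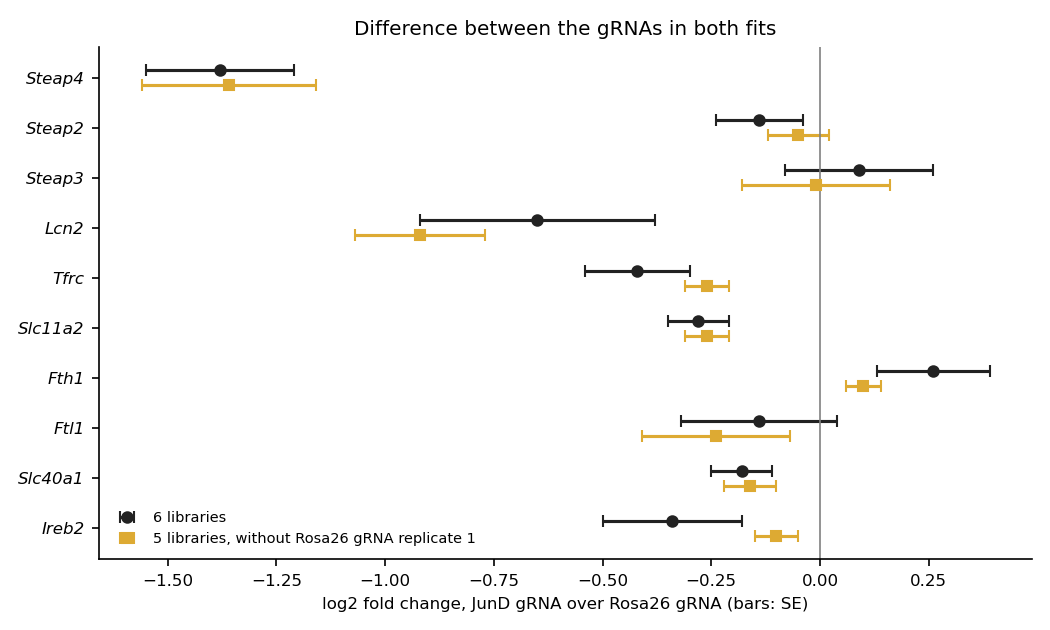
Log2 fold change, JunD gRNA over Rosa26 gRNA, of each of the 10 genes (horizontal axis; bars are the SE) on 6 libraries and on the 5 without Rosa26 gRNA replicate 1. The 2 fits nearly coincide for Steap4 and Slc11a2, while Lcn2 moves from -0.65 to -0.92 and Tfrc from -0.42 to -0.26.

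No fall of a ferritin mRNA passed the test. Fth1, the heavy chain that carries the ferroxidase activity, was at 136, 192 and 191 CPM with the Rosa26 gRNA and 199, 208 and 208 CPM with the JunD gRNA. All JunD gRNA libraries were above all Rosa26 gRNA libraries, by little for replicates 2 and 3 of the control and by more for replicate 1. The log2 fold change was 0.26 ± 0.13 on 6 libraries (edgeR adjusted p = 0.429) and 0.10 ± 0.04 on 5 (0.209), so Fth1 passed in neither. The ratio of Tfrc to Fth1 counts, which needs no library scaling, was 1.70, 0.868 and 0.856 in Rosa26 gRNA replicates 1, 2 and 3 and 0.733, 0.667 and 0.619 in the JunD gRNA replicates. Since Tfrc was lower and Fth1 higher in every JunD gRNA library, the ratio had to be lower in each of them and is no separate evidence. Rosa26 gRNA replicate 1 was the extreme. Fth1 lies at chr19:9980598-9985098 on the plus strand (2 merged exons).

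The light chain gene Ftl1 cannot be read by itself. It had 159, 203 and 230 counts with the Rosa26 gRNA and 182, 129 and 186 with the JunD gRNA, or 3.66, 4.06 and 4.81 CPM against 4.35, 3.14 and 3.75 CPM, and the groups overlapped. Its log2 fold change was -0.14 ± 0.18 on 6 libraries (edgeR adjusted p = 0.709) and -0.24 ± 0.17 on 5 (0.537). The near-identical copies Ftl1-ps1, Ftl1-ps2 and Ftl2-ps together had 6021, 7972 and 7231 counts against 6422, 6604 and 8385, almost all at Ftl1-ps1. Over the 549 bases of the Ftl1 coding sequence 547 were identical in Ftl1-ps1 (99.6%), and 73.4% of the 50-base windows of the Ftl1 transcript occur unchanged in that copy. Ftl1 itself took between 1.92% and 3.08% of the light chain counts. The sources used here do not give how reads that match several places were assigned.

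Summed over Ftl1 and its copies, the light chain was at 142, 163 and 156 CPM against 158, 164 and 173 CPM, and the groups overlapped. The summed log2 fold change was 0.11 ± 0.08 on 6 libraries (edgeR adjusted p = 0.502) and 0.05 ± 0.05 on 5 (0.655), opposite in sign to that of Ftl1 alone. This sum was chosen after the data were seen. Ftl1 lies at chr7:45457944-45459884 on the minus strand (4 merged exons), and 355 exon bases are shared with Gm10252 on the other strand, which had 189 counts over the 6 libraries. The Ftl1 values carry both of these limits.

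**Figure D3:**
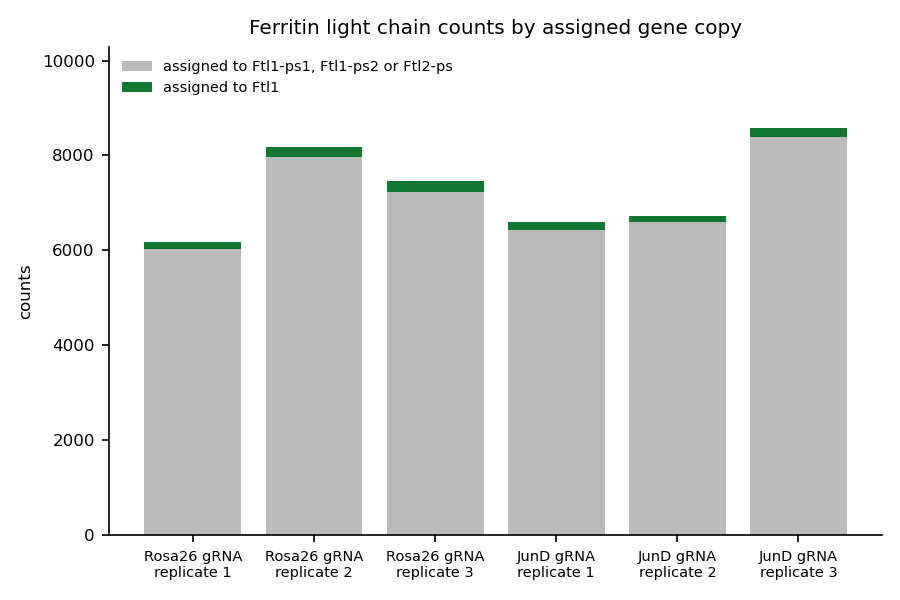
Ferritin light chain counts in each library as counted at Ftl1 and at its near-identical copies, drawn for the 3 Rosa26 gRNA and 3 JunD gRNA libraries. Ftl1 holds 1.92% to 3.08% of the sum in each library, and the sum overlaps between groups.

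Slc40a1 encodes ferroportin, the cell's iron exporter. It was at 38.0, 35.6 and 35.3 CPM with the Rosa26 gRNA and 32.5, 30.5 and 31.9 CPM with the JunD gRNA, so that the groups were apart with little spread in either. The log2 fold change was -0.18 ± 0.07 on 6 libraries (edgeR adjusted p = 0.417) and -0.16 ± 0.06 on 5 (0.199), and neither passed. After the GC and length correction it was -0.02 on 6 libraries and -0.07 on 5. The gene lies at chr1:45908068-45926523 on the minus strand (8 merged exons).

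Ireb2, which encodes IRP2, was at 147, 91.7 and 95.6 CPM against 86.3, 93.2 and 81.1 CPM. Apart from Rosa26 gRNA replicate 1 the libraries of the groups interleaved. This gave a log2 fold change of -0.34 ± 0.16 on 6 libraries (edgeR adjusted p = 0.419) and -0.10 ± 0.05 on 5 (0.343), and after the GC and length correction -0.05 on 6 and 0.02 on 5. Its gene lies at chr9:54863789-54912530 on the plus strand (21 merged exons). IRP2 is controlled largely at the protein level, which mRNA counts do not measure.

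The place of Rosa26 gRNA replicate 1 among the 6 libraries is given here by the GC content of the genes. It was the highest library for the 4 genes of lowest GC content, Ireb2 (39.0% GC), Steap2 (39.5%), Tfrc (39.8%) and Slc40a1 (42.0%), and for Steap4 (44.7%) and Slc11a2 (50.4%). It was the lowest for Fth1 (50%) and Steap3 (52.8%), and the fifth from the top for Lcn2 (54.4%) and Ftl1 (58.1%). Over all genes it was the highest library for 38.3% and the lowest for 32.8%. Relative to the mean of the other 5 libraries it was at 0.71 (log2) for Ireb2, 0.64 for Tfrc and -0.55 for Fth1. After the GC and length correction the 6-library log2 fold change was -1.30 for Steap4, -0.75 for Lcn2, 0.24 for Fth1, -0.32 for Ftl1 and 0.09 for Steap3. The part of GC content in these values was not tested otherwise.

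Of the wider iron network, 91 genes in 7 lists were examined, and 80 of them were tested on 5 libraries. Only Slc39a8 rose and Neo1 fell among them (2.86% of all genes were called in either direction), and 78 did not pass; 47 had a positive and 33 a negative log2 fold change, with a median of 0.02. On 6 libraries 78 were tested and 0 passed. Slc39a8 encodes the metal importer ZIP8, which carries zinc, manganese and iron. It was at 69.5, 60.8 and 63.3 CPM with the Rosa26 gRNA and 78.7, 73.0 and 73.9 CPM with the JunD gRNA, and rose by 0.28 ± 0.05 on 5 libraries (log2, edgeR adjusted p = 0.00428). Neo1 encodes neogenin, a receptor that takes part in the BMP control of hepcidin in liver and in axon guidance elsewhere. It was at 209, 187 and 188 CPM against 161, 167 and 154 CPM, a log2 fold change of -0.22 ± 0.04 on 5 libraries (adjusted p = 0.00588). In both genes the groups were apart, and on 6 libraries neither passed (log2 fold changes of 0.24 and -0.26, adjusted p = 0.417 for each).

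The list values that follow are from 5 libraries, and on 6 libraries 0 of their genes passed. Among the 10 tested uptake genes the median log2 fold change on 5 libraries was -0.02, with 5 positive and 5 negative. The 7 tested storage and chaperone genes were all positive (median 0.13), beside 8997 of 18296 genes, and 0 passed. Pcbp1, which delivers iron to ferritin, was at 0.13 ± 0.04 (edgeR adjusted p = 0.0766), Pcbp3 at 0.19 ± 0.06 (0.0872) and Bola2 at 0.21 ± 0.08 (0.206). Pcbp2, Ncoa4 and Glrx3 were at 0.06 ± 0.05, 0.08 ± 0.08 and 0.09 ± 0.08. Bdh2, at 0.14 ± 0.82, had only 1 to 15 counts per library. Of the 10 export and hepcidin genes 4 were tested, 3 of them negative (median -0.27); Hamp, the hepcidin gene, was among the 6 with too few counts. The 7 genes of iron-regulatory proteins and other IRE mRNAs had a median of -0.01, with Aco1 (IRP1) at 0.08 ± 0.05 (adjusted p = 0.491) and Fbxl5, which targets IRP2 for degradation, at -0.04 ± 0.07 (0.841).

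No gene of iron-sulfur or heme metabolism passed in either fit. The 23 tested mitochondrial genes had a median of 0.01 (14 positive, 9 negative), with Glrx5, a carrier of iron-sulfur clusters, at 0.20 ± 0.07 (adjusted p = 0.0938). The 9 cytosolic assembly genes had a median of 0.05, with the scaffold gene Nubp1 at 0.23 ± 0.07 (adjusted p = 0.0768). The 20 heme genes had a median of 0.01, with Alad, an enzyme of heme synthesis, at 0.24 ± 0.07 (adjusted p = 0.0698).

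Lcn2 and Steap4 are known as targets of inflammatory signalling, and 14 genes of that kind were listed with them. Of the 13 tested on 5 libraries 11 were negative and 2 positive (median -0.12), and 0 passed in either fit. The 3 with the widest differences at 2 CPM or more were C3, a complement gene, at -0.28 ± 0.22 (adjusted p = 0.59), Nfkbiz, an NF-kB cofactor needed for Lcn2 induction, at -0.19 ± 0.06 (0.0941) and Tnfaip3, an NF-kB inhibitor, at -0.17 ± 0.09 (0.387). The list was drawn up with the lower Steap4 and Lcn2 values known, so its direction is not independent of them.

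**Figure D4:**
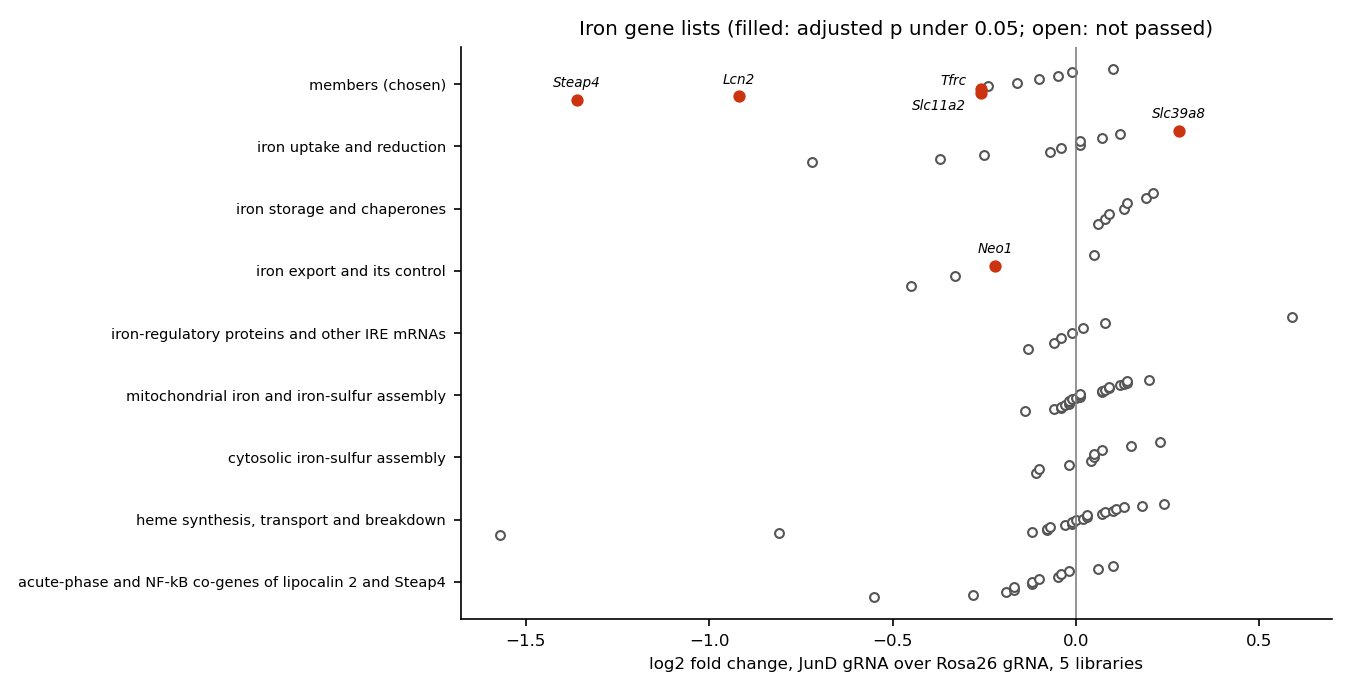
Log2 fold change, JunD gRNA over Rosa26 gRNA on 5 libraries (horizontal axis), of every tested gene in the set and in each of the 8 lists. Filled points have an edgeR adjusted p under 0.05. Steap4 and Lcn2 were selected for their fall in this contrast, so their fill is a description and not a test. Outside the set Slc39a8 and Neo1 are the filled points. Every tested storage and chaperone gene lies to the right of 0, though none passed.

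The genes whose pattern over the 6 libraries was closest to Steap4 were the chemokine gene Ccl2, the prostaglandin synthase gene Ptgs2, Lrrtm2, the urokinase gene Plau and Cped1. Likeness was the Euclidean distance between log2 CPM values centred on each gene's mean, over 11688 genes, and these 5 lay at 0.47, 0.51, 0.59, 0.70 and 0.78. Lcn2 ranked 662 on this list, at a distance of 1.39. The genes closest to Lcn2 were Uts2b, Nacc2, the selenoprotein gene Gpx3, Emp3 and the complement inhibitor gene Serping1, at 0.28, 0.39, 0.43, 0.45 and 0.51. Steap4 ranked 10727 for Lcn2, although the Pearson correlation of the 2 genes over the 6 libraries was 0.58. The distance also counts the size of the differences between libraries, so a gene can rank far down and still correlate. In the 5 genes closest to Steap4 Rosa26 gRNA replicate 1 was above all JunD gRNA libraries, as Ccl2 shows with 7.39, 5.78 and 7.36 CPM against 2.08, 2.95 and 2.24 CPM. In Uts2b, the gene closest to Lcn2, it lay within the JunD gRNA range, with 1.94, 3.78 and 3.78 CPM against 1.77, 2.39 and 2.52 CPM. It also lay within that range in Nacc2, Emp3 and Serping1. In Gpx3 it was above, at 26.7 CPM against 22.7, 21.6 and 23.9 CPM. These genes were picked for likeness over the same libraries, so a shared place of this library is partly built in. By their own values, the 2 genes that chose the set differ in pattern over these libraries, most of all in the place of Rosa26 gRNA replicate 1.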

How the data were processed

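The authors deposited unnormalized counts of reads by gene identifier, in a table per library. TopHat2, featureCounts and mm10 are named in the submitters' processing notes, without versions. The sources used here do not give the strand setting, the annotation release or how multi-mapping reads were handled.

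Symbols, coordinates and lengths came from GENCODE M21 on GRCm38 (53274 of 53379 identifiers matched). Sample titles gave the replicate, and the gRNA label the group. The contrast was fitted over all genes with edgeR 4.0.16 in R 4.3.3: TMM factors, filterByExpr, quasi-likelihood test with group alone, two-sided, Benjamini-Hochberg adjustment at 0.05. The SE is the absolute log2 fold change over the square root of F. "Rose" and "fell" refer to calls on 5 libraries. Alternatives were other scalings and filters, DESeq2 1.42.0, limma-voom (limma 3.58.1), a GC and length correction, a replicate block and left-out libraries. Libraries differed pairwise by more than sampling noise. The fits were tested on simulated data.

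The members, the lists and the fit on 5 libraries were chosen with earlier results of these data known. Besides the 10 genes, list genes were named if called on 5 libraries, or as the up to 3 widest differences per list at 2 CPM or more, and for likeness the 5 nearest genes. Some genes that this rule names are not reported here. Cd68, Hamp, Jund, Pcbp2, Ncoa4, Glrx3 and Bdh2 were named outside this rule, after their values were seen. Marker lists of other cell types were summed as well, in CPM with the Rosa26 gRNA and then with the JunD gRNA. Duct and acinar markers were at 49.9 to 58.0 and 60.4 to 62.6, nearly all Krt19. Fibroblast and endothelium markers were at 3.23 to 5.72 and 3.19 to 4.27. Hepatocyte markers were at 2110 to 4080 and 3950 to 4050, nearly all Ttr, and erythroid markers at 0.251 to 0.898 and 0.504 to 0.813.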

Additional observations from a re-analysis of the deposited data

How the results depend on the processing

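On 6 libraries edgeR called 0 of 17767 genes. Without a count filter it called 86 of 29458 genes (2 of the 10). Of the 17767 genes, DESeq2 called 67 (1 of the 10), voom with sample weights 293 (4) and the GC and length correction 26 (1). Leaving out 1 library in turn gave 0 to 523 calls and 0 to 4 of the 10, with all calls coming from the omission of Rosa26 gRNA replicate 1. On 5 libraries 523 of 18296 genes (2.86%) and 4 of the 10 were called. No count filter gave 870 and sample weights 820. DESeq2 called 2 of the 10, since it gave no adjusted p for Steap4, Lcn2, Ftl1 and Steap3. Leaving out 1 further library gave 46 to 672 calls and 1 to 4 of the 10: 51 calls without Rosa26 gRNA replicate 2, which left 1 of the 10, and 46 without replicate 3, which left 2. The lone control library is then assumed to vary like the others. Tfrc and Slc11a2 were called in neither. Counts out of the 10 include Steap4 and Lcn2, which chose the set, and are a description.

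With the replicate number as a block, 832 genes were called on 5 libraries and 0 on 6, and no call of the 10 changed. Deviations of same-numbered libraries correlated at 0.0537, -0.0357 and 0.0717, and not every library correlated best with its own number, so the numbers were not taken as pairs.

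Signs turned for Steap2 with the GC and length correction (0.17 on 6 libraries, 0.09 on 5), for Ireb2 with it on 5 (0.02), for Ftl1 with light chain counts summed (0.11 and 0.05), and for Steap3, which ran from -0.01 to 0.22 on 6 libraries and from -0.12 to 0.12 on 5 with libraries left out and was 0.03 with sample weights. None of these passed. The direction of Steap4, Lcn2, Tfrc, Slc11a2, Fth1 and Slc40a1 held in all 15 alternatives on 6 libraries and all 14 on 5. For Steap4 and Lcn2, selected for their fall, this is a description. In Tfrc, Slc11a2, Fth1 and Slc40a1 the groups did not overlap, so leaving out libraries could hardly turn their sign. The causes were not tested. Low counts limit Steap3, Steap4, Lcn2 and Ftl1.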
